A study of Mus musculus with 4 samples.

Results

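The kainate and delta glutamate receptor genes were taken by symbol as *Grik1* to *Grik5*, which encode the kainate receptor subunits GluK1 to GluK5, *Grid1*, which encodes the delta receptor GluD1, and *Neto1* and *Neto2*, which encode auxiliary proteins of kainate receptors. All 8 genes were found among the 23420 gene symbols counted, and all 8 passed the filter on low counts that left 16232 genes for testing. RNA came from medial PFC punches that contained GFP fluorescence, taken from C57BL6/J mice 6 to 8 weeks old according to the description of the series. The 2 control samples came from mice injected with AAV9 carrying GFP (GFP-AAV9, described in the methods as a scrambled shRNA virus), and the 2 *Ash1L* shRNA samples from mice injected with AAV9 carrying a hairpin against *Ash1L*, a histone methyltransferase gene. The hairpin was a single sequence under the U6 promoter, which is not restricted to a cell type, the vector was tagged with GFP, and the punches were lysed whole, so infected and uninfected cells were measured together. In the methods each sample is a pool of tissue from 3 mice, whereas the series description counts 3 *Ash1L* shRNA mice and 2 control mice.

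Kainate receptors are glutamate-gated cation channels built from 4 subunits. GluK1, GluK2 and GluK3 form working channels on their own and bind kainate with low affinity, whereas GluK4 and GluK5 bind it with high affinity and reach the membrane only together with one of the first group. Neto1 and Neto2 are transmembrane proteins that slow the closing of these channels and change where they sit at the synapse. In cortex, kainate receptors act on both sides of the synapse, where they adjust transmitter release from excitatory and inhibitory terminals and carry slow excitatory currents. GluD1 resembles these receptors in sequence but is not opened by glutamate. It holds synapses together through cerebellins, secreted proteins that bridge it to presynaptic neurexins.

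Sequences before the start sites are shown for the 2 genes called lower below and for *Grik4*, the member whose groups overlapped. RefSeq windows on GRCm38.p6 were used for 5 of the 8 genes, which is not a count of the members that have one. The 250 bases before the start are printed, 5′ to 3′ on the gene's strand. Capitals mark the GC box, the letters GGGCGG searched on both strands (its reverse complement is CCGCCC), a sequence bound by Sp1 family factors.
*Grik3* (chr4:125490446-125490695, plus strand): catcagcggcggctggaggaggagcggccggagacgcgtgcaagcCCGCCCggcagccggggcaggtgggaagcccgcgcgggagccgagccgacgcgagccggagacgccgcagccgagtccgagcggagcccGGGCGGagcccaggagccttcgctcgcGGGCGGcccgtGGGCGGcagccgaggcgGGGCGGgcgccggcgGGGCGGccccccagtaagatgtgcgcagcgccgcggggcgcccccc
*Grik2* (chr10:49788755-49789004, minus strand): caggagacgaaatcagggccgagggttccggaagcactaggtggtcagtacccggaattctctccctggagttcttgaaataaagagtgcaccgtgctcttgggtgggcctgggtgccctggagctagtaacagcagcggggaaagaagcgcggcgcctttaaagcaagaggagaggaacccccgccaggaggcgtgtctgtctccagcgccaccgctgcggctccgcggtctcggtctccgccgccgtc
*Grik4* (chr9:42944372-42944621, minus strand): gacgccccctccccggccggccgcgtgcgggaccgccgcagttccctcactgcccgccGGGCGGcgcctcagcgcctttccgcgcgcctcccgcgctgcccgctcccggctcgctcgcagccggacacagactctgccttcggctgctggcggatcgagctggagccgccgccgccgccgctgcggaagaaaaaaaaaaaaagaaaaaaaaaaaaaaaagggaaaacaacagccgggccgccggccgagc
The *Grik3* window held 42 CpG dinucleotides and 6 GC boxes at a GC content of 82.0%. The *Grik2* window held 20 CpG and no GC box, and the *Grik4* window 36 CpG and 1 GC box. The windows of *Grik5* (8 CpG) and of the distal start of *Neto2* (30 CpG) held 2 GC boxes each, and a second, downstream start of *Neto2* had no CpG. Across all 32851 windows of this length the median was 6 CpG, and 32.74% held a GC box. The cyclic AMP response element (TGACGTCA) was in 1.55% of all windows, the TATA box (TATAAA) in 12.37% and the E-box (CACGTG) in 6.02%. None of these 3 was in a window of the 5 members used. A match is a description of letters and not a measured site.

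The genes were long, from the 76.1 to the 99.4 percentile of span among tested genes, and their mean levels lay from the 48.7 (*Grik1*) to the 89.9 percentile (*Grik3*). *Grid1* spanned 763.3 kb of chromosome 14, *Grik2* 693.9 kb of chromosome 10, *Grik4* 426.4 kb of chromosome 9, *Grik1* 394.4 kb of chromosome 16 and *Grik3* 223.5 kb of chromosome 4 (mm10, GENCODE vM21). *Neto1* on chromosome 18, *Neto2* on chromosome 8 and *Grik5* on chromosome 7 were shorter, with spans of 111.8 kb, 64.3 kb and 62.5 kb. No gene of the count tables overlapped an exon of a member. Annotated noncoding genes absent from the tables overlapped 219 exonic bases of *Neto1*, 91 of *Grid1*, 59 of *Grik4* and 20 of *Neto2*. Per kilobase of exon, the control level was highest for *Grik5*, at 19.0 and 20.5 TMM-normalized CPM (counts scaled to a common effective library size) per kilobase in control samples 1 and 2. *Grik3* followed at 18.5 and 17.7, and *Neto2*, at 11.8 and 15.9, overlapped *Grid1*, at 13.7 and 11.7. *Neto1*, at 8.09 and 8.15, lay next to *Grik2*, at 7.24 and 8.07. *Grik4* had 4.0 and 5.36 and *Grik1* the lowest level, 3.46 and 3.26 CPM per kilobase. These lengths join the exons of all isoforms. With the longest coding transcript as the length, *Grik2* passed above *Neto1*, and *Grik1*, at 6.36 and 5.99, passed above *Grik4*, at 4.06 and 5.42.

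The question asked of the RNA-seq was how knockdown of *Ash1L* in PFC changes gene expression. The targeted gene *Ash1l* had 245 and 290 CPM in control and 216 and 138 CPM in *Ash1L* shRNA samples 1 and 2. Its log2 fold change was -0.60 (standard error 0.22, adjusted p = 0.275, edgeR's quasi-likelihood test), and sample 1 was nearer to the controls than sample 2. Without *Ash1L* shRNA sample 1 it was -0.97, and without sample 2 it was -0.31. Total counts ran from 14251190 to 35764874, lowest in control sample 1, and counting error for a member was largest for *Grik1* and *Grik4*, which had 328 and 337 counts in that sample. Between the 2 control samples, the ratio of normalized levels departed from 1 beyond counting error for 5 of the 8 genes (exact 95% binomial interval), and between the 2 *Ash1L* shRNA samples for 8 of 8. The replicates therefore differed by more than counting error, the only error those intervals cover.

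For 7 of the 8 genes, both *Ash1L* shRNA values lay below both control values, and *Grik4* had overlapping groups. Over all genes tested, 26.8% lay lower in this way, 26.5% lay higher, and 50.3% had a log2 fold change below 0. Among the 7 members, the gap was small for *Neto2* (71.8 against 72.0 CPM) and *Grik5* (96.9 against 98.3 CPM). The separation of both depends on the TMM scaling. *Grik3* and *Grik2* were called DOWN (p under 0.05 without adjustment and at least 1.2-fold lower, the limits used in the study's methods), against 8.28% of all genes tested, and 0 were called UP, against 8.61%. The median log2 fold change of the 8 genes was -0.33 (-0.003 over all genes tested). After Benjamini-Hochberg adjustment over all genes, 0 of the 8 passed a limit of 0.05 in edgeR's quasi-likelihood test, in its likelihood ratio test or in DESeq2. Without adjustment, 2 of the 8 passed in the quasi-likelihood test, against 16.9% of all genes, and 0.00616% of all genes (1 gene) passed with it. After adjustment, 479 of 16232 genes passed in the likelihood ratio test and 421 of 20177 in DESeq2. In a bulk sample, fewer cells of a type and less RNA per cell cannot be told apart.

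**Figure D1:**
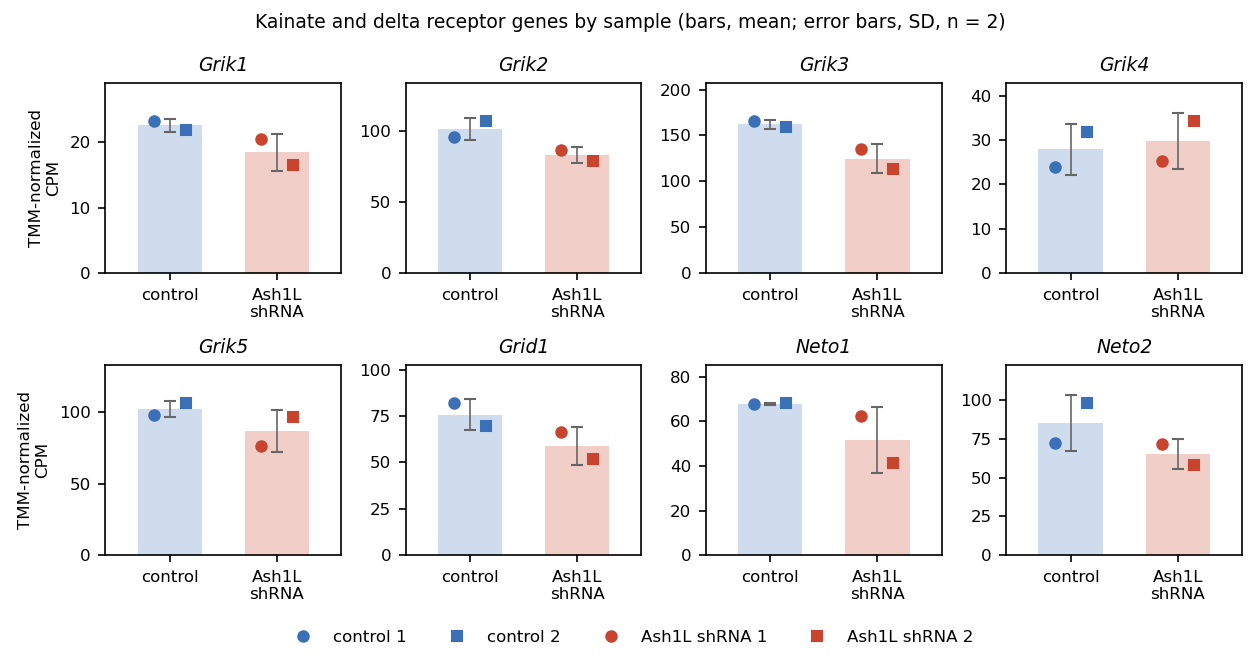
TMM-normalized CPM of the 8 genes in each sample, with blue points for control and red points for *Ash1L* shRNA samples, circles for sample 1 and squares for sample 2, bars for the group mean and error bars for the SD (n = 2). Red points lie below both blue points for 7 genes and overlap them for *Grik4*. The gap is small for *Neto2* (71.8 against 72.0 CPM) and *Grik5* (96.9 against 98.3 CPM).

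*Grik3* encodes GluK3, a low-affinity subunit found in deep cortical layers and in presynaptic receptors. It had 166 and 159 CPM in control samples 1 and 2 and 136 and 113 CPM in *Ash1L* shRNA samples 1 and 2. The control samples lay close together and both *Ash1L* shRNA samples were below them, sample 2 more so. The mean was 162 ± 4.95 in control and 124 ± 15.8 CPM in *Ash1L* shRNA samples (SD, n = 2 each). The log2 fold change was -0.38 (95% interval -0.69 to -0.07, adjusted p = 0.261, edgeR's quasi-likelihood test), a ratio of 0.767. *Grik3* was the member DOWN in each alternative that kept all samples and the 1.2-fold limit, and the call was lost without control sample 1 (log2 fold change -0.34), control sample 2 (-0.42) or *Ash1L* shRNA sample 2 (-0.26).

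*Grik2* encodes GluK2, the principal subunit of kainate receptors in forebrain. Its levels were 95.9 and 107 CPM in control and 86.7 and 79.0 CPM in *Ash1L* shRNA samples. Both *Ash1L* shRNA samples were below both controls, and they lay nearer to each other, by 0.13 on the log2 scale, than for any other member. The log2 fold change was -0.29 (95% interval -0.58 to -0.004, adjusted p = 0.292, edgeR's quasi-likelihood test). The call stood at the limit of the test and was lost in DESeq2 (log2 fold change -0.29), in edgeR's likelihood ratio test (-0.29), with scaling by library size (-0.25), with a minimum of 10 counts in every sample (-0.28) and with a correction for exonic length (-0.25). It was also lost without control sample 1 (-0.36), control sample 2 (-0.22) or *Ash1L* shRNA sample 2 (-0.23).

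*Grik1* encodes GluK1, the third low-affinity subunit, which is enriched in interneurons. It had 23.2 and 21.9 CPM in control and 20.4 and 16.5 CPM in *Ash1L* shRNA samples. The groups did not overlap, and sample 1 lay near control sample 2. Its log2 fold change was -0.29 (95% interval -0.68 to 0.11, adjusted p = 0.398, edgeR's quasi-likelihood test).

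The high-affinity subunits did not follow this pattern across samples. *Grik5*, which encodes GluK5, the common partner of GluK2, had 98.3 and 106 CPM in control and 76.3 and 96.9 CPM in *Ash1L* shRNA samples. Here sample 1 was the lower one and sample 2 was near the control samples. The log2 fold change was -0.24 (95% interval -0.59 to 0.11, adjusted p = 0.425, edgeR's quasi-likelihood test). *Grik4*, which encodes GluK4, had 23.9 and 31.9 CPM in control and 25.3 and 34.3 CPM in *Ash1L* shRNA samples, so that sample 2 of each group was high and sample 1 low. Its log2 fold change was 0.09 (95% interval -0.42 to 0.60, adjusted p = 0.855, edgeR's quasi-likelihood test), an interval that holds the estimates of all the other members. *Grik4* turned to -0.09 without control sample 1 and to -0.15 without *Ash1L* shRNA sample 2.

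*Neto1*, one of the auxiliary proteins, showed the widest gap between the *Ash1L* shRNA samples. It had 67.6 and 68.0 CPM in control and 62.3 and 41.3 CPM in *Ash1L* shRNA samples 1 and 2. The control samples were nearly equal, and sample 2 stood 0.72 below their mean on the log2 scale, against 0.12 for sample 1. The log2 fold change was -0.39 (95% interval -0.87 to 0.09, adjusted p = 0.359, edgeR's quasi-likelihood test), and it was -0.72 without sample 1 and -0.12 without sample 2. *Neto2* had 72.0 and 97.6 CPM in control and 71.8 and 58.2 CPM in *Ash1L* shRNA samples. Control sample 1 and *Ash1L* shRNA sample 1 were almost the same, so the separation of the groups was slight. Its log2 fold change was -0.39 (95% interval -0.83 to 0.06, adjusted p = 0.335, edgeR's quasi-likelihood test). The ratio of *Neto1* to *Neto2* per kilobase was 0.688 and 0.512 in control and 0.636 and 0.520 in *Ash1L* shRNA samples, with no separation of the groups.

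*Grid1* had 81.8 and 69.8 CPM in control and 66.2 and 51.8 CPM in *Ash1L* shRNA samples. Both *Ash1L* shRNA samples lay below the controls, sample 1 close to control sample 2. The log2 fold change was -0.36 (95% interval -0.74 to 0.02, adjusted p = 0.315, edgeR's quasi-likelihood test). Without a filter on low counts, beyond 1 count in any sample, it was called DOWN, with a log2 fold change of -0.36.

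**Figure D2:**
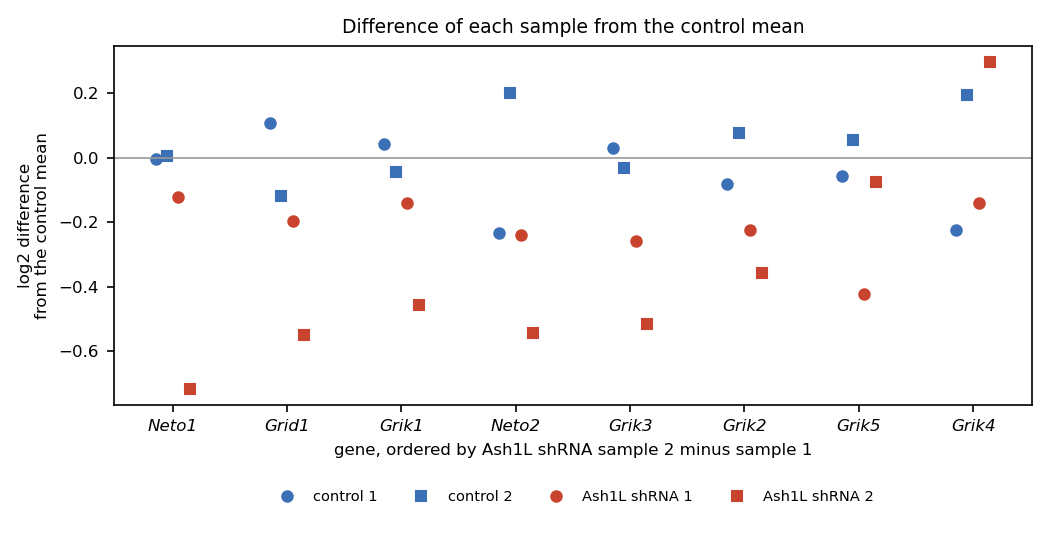
Log2 difference of each sample from the mean of the 2 control samples, for the 8 genes in the order of *Ash1L* shRNA sample 2 minus sample 1, with blue for control, red for *Ash1L* shRNA, circles for sample 1 and squares for sample 2. Sample 2 is the lower red point for 6 genes and the higher one for *Grik5* and *Grik4*.

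The 2 *Ash1L* shRNA samples thus differed in which genes were low. Sample 2 was below sample 1 for 6 genes, by 0.13 on the log2 scale for *Grik2*, between 0.26 and 0.36 for *Grik3*, *Neto2*, *Grik1* and *Grid1*, and 0.59 for *Neto1*. It was above sample 1 by 0.35 for *Grik5* and 0.44 for *Grik4*. Without *Ash1L* shRNA sample 1, edgeR's quasi-likelihood test called 6 of the 8 genes DOWN, against 16.5% of all genes in that fit. *Neto1*, *Grik3* and *Grid1* then had adjusted p-values of 0.0125, 0.0302 and 0.043, in a fit where 15.2% of all genes passed that limit. Over all the alternatives, their adjusted p ran from 0.0125 to 0.87 for *Neto1*, from 0.0302 to 0.87 for *Grik3* and from 0.043 to 0.87 for *Grid1* (edgeR and DESeq2). Without *Ash1L* shRNA sample 2, *Grik5* was the 1 gene called DOWN (log2 fold change -0.42, and -0.08 without sample 1), against 5.05% of all genes, and 0 of the 8 passed the adjusted limit in edgeR's test, against 0.216%. These fits take the spread of the lone sample to equal that of the 2 control samples. Without control sample 1, *Neto2* alone was DOWN (4.14% of all genes), and without control sample 2, 0 of the 8 were (1.86%).

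As shares of their sum per kilobase of exon, which do not depend on the scaling between libraries, the kainate subunits overlapped between the groups. *Grik5* made up 36.4% and 37.4% in control and 33.8% and 41.2% in *Ash1L* shRNA samples. For *Grik3* the shares were 35.4% and 32.2% in control and 34.6% and 27.7% in *Ash1L* shRNA samples. *Grik2* held 13.9% and 14.7%, then 15% and 13.1%, and *Grik1* 6.63% and 5.93%, then 6.96% and 5.37%. *Grik4* held 7.67% and 9.76% in control and 9.71% and 12.6% in *Ash1L* shRNA samples. The high-affinity pair *Grik4* and *Grik5* together held 44.1% and 47.1% in control and 43.5% and 53.8% in *Ash1L* shRNA samples. The *Grik5* to *Grik4* ratio per kilobase was 4.75 and 3.83 in control and 3.48 and 3.26 in *Ash1L* shRNA samples, without overlap (exact permutation test, two-sided p = 0.333, the smallest that 2 samples against 2 allow). The other ratios examined overlapped: *Grik1* to *Grik2* (0.477 and 0.404, then 0.465 and 0.41), *Grik3* to *Grik2* (2.55 and 2.19, then 2.31 and 2.12) and *Neto1* to *Neto2*. The summed level of the 5 subunits was 407 and 425 CPM in control and 344 and 340 CPM in *Ash1L* shRNA samples, so that the low-affinity and high-affinity subunits, which differed in opposite directions between the *Ash1L* shRNA samples, gave nearly the same sum.

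**Figure D3:**
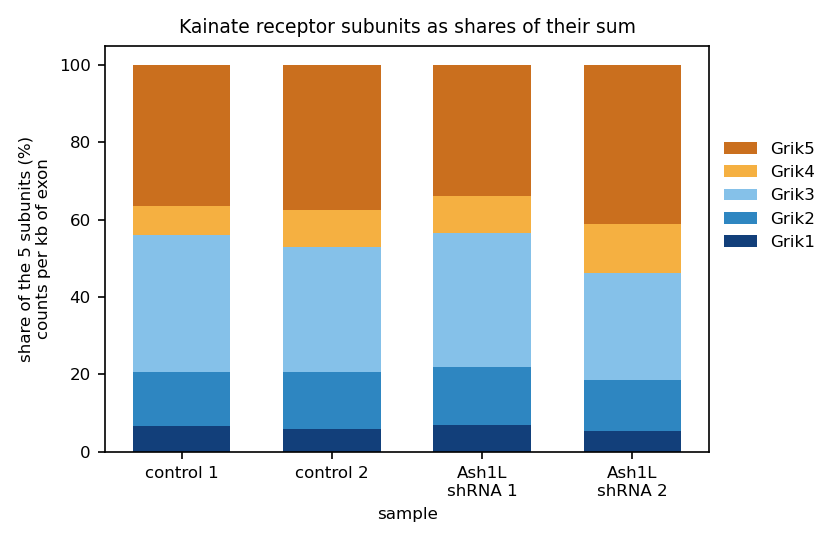
Stacked bars of each subunit's share, in percent, of the summed counts per kilobase of exon over *Grik1* to *Grik5*, 1 bar for each sample. *Grik5* and *Grik3* make up the largest shares in all 4 samples, and the *Grik4* share is highest, at 12.6%, in *Ash1L* shRNA sample 2.

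Proteins that bind kainate receptors were a mixed group. Of 10 listed genes, 8 had a log2 fold change below 0 and 2 were DOWN, with a median of -0.08. *Dlg1*, which encodes the scaffold SAP97, had a log2 fold change of -0.36 and *Cask*, which encodes another membrane-associated scaffold, one of -0.33 (adjusted p = 0.267 and 0.295, edgeR's quasi-likelihood test). The scaffold gene *Dlg4* (PSD-95) was at -0.11, *Klhl24*, which encodes a GluK2 binding protein, at -0.20, and the adhesion complex genes *Cdh2* and *Ctnnb1* at -0.02 and -0.03, none of which were called. Neither *Dlg1* nor *Cask* was DOWN with a correction for exonic length, or without control sample 1, control sample 2 or *Ash1L* shRNA sample 2. *Adarb1*, *Adar* and *Adarb2* were listed as genes of the ADAR family. *Adarb1* encodes ADAR2, the main editor of the GluK2 pore site. It had 267 and 212 CPM in control and 209 and 275 CPM in *Ash1L* shRNA samples. These groups overlapped, with a log2 fold change of 0.01. *Adar* was UP with a log2 fold change of 0.36 and *Adarb2*, which is also a marker of interneurons, DOWN with one of -0.62 (adjusted p = 0.26 and 0.262, edgeR's quasi-likelihood test). Neither call held without control sample 1 or control sample 2, and that of *Adarb2* was also lost without *Ash1L* shRNA sample 2. Editing itself was not measured by these counts.

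Of the 9 genes listed as partners of delta receptors, 8 were tested and 0 were called in edgeR's quasi-likelihood test, and 0 of them passed 0.05 in it without adjustment. In DESeq2 1 of them was UP and 0 were DOWN, and without a filter on low counts 1 was DOWN. Without *Ash1L* shRNA sample 1, 2 were UP and 2 DOWN, and without sample 2, 1 was UP and 1 DOWN. Their median log2 fold change was 0.11. *Nrxn2* and *Nrxn3*, which encode neurexins, had log2 fold changes of -0.20 and 0.03. *Cbln2*, the most abundant cerebellin gene here, had 61.2 and 64.7 CPM in control and 87.7 and 56.4 CPM in *Ash1L* shRNA samples, which lay on either side of the controls.

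The other ionotropic glutamate receptor genes had a similar median difference, over a wider range. Of the 11 AMPA and NMDA receptor subunit genes, 10 had a log2 fold change below 0 and 4 were DOWN (*Grin2a*, *Grin2b*, *Grin2c* and *Grin3a*), with a median of -0.36 beside -0.33 for the 8 kainate and delta receptor genes. Their summed level was 3036 and 3251 CPM in control and 2798 and 2239 CPM in *Ash1L* shRNA samples. *Grin2c*, an NMDA receptor subunit gene, had the lowest value of the 4, a log2 fold change of -1.05 (adjusted p = 0.26, edgeR's quasi-likelihood test). The abundant AMPA subunit genes *Gria2* and *Gria1* were at -0.22 and -0.27, *Gria3* at -0.58 and *Grin1* at -0.06, none of which were called. *Grin3b*, the only gene of this list above 0, was at 1.06 on 9 to 47 counts per sample and was not called. The number DOWN was 1 without control sample 1 or without control sample 2, and 8 without *Ash1L* shRNA sample 1. A difference between these groups of genes was not tested.

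**Figure D4:**
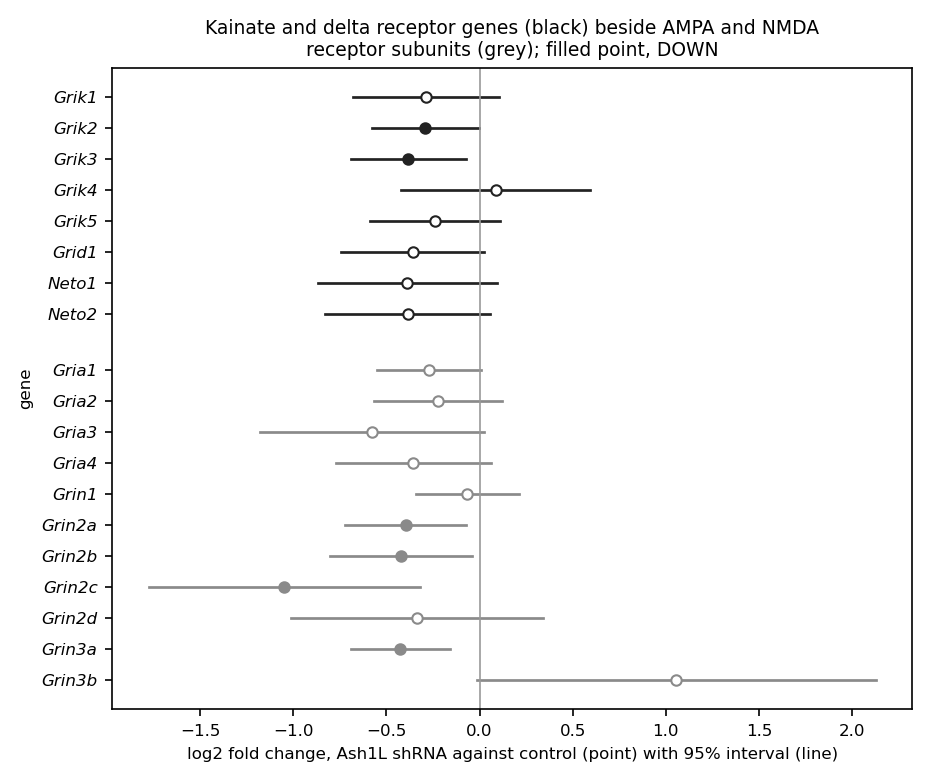
Log2 fold change of *Ash1L* shRNA against control samples (points) with 95% intervals (lines) from edgeR's quasi-likelihood fit, for the 8 kainate and delta receptor genes (black) and the 11 AMPA and NMDA receptor subunit genes (grey), with filled points for genes called DOWN. In black, 7 of 8 points lie left of 0 and 2 are filled.

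Genes that spanned at least 200 kb, as 5 of the 8 members do, also had lower values as a class. Of the 925 such genes tested, 15.46% were DOWN and their median log2 fold change was -0.10. The 10786 genes under 50 kb had 7.22% and 0.001. The 3490 genes of 50 to 200 kb, which include *Neto1*, *Neto2* and *Grik5*, had 9.8% and 0.003. At a mean level within the members' range, 11.27% of 6263 genes of any span were DOWN. Among the 2148 genes of at least 50 kb with a mean level within the members' range, which holds all 8, 13.45% were DOWN, 33.2% had both *Ash1L* shRNA samples below both controls, and the median was -0.03. The part of gene span in the members' values was not tested.

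The summed levels of excitatory neuron, interneuron, pan-neuronal and astrocyte markers lay below both controls in both *Ash1L* shRNA samples, and those of the other marker lists did not. The defining genes of cortical excitatory neurons and interneurons were present in every sample. The 8 excitatory neuron markers summed to 2538 and 3015 CPM in control and to 2317 and 1935 CPM in *Ash1L* shRNA samples, with 8 of 8 below 0 and 5 DOWN. Interneuron markers summed to 712 and 655 CPM in control and to 590 and 607 CPM in *Ash1L* shRNA samples, with 6 of 8 below 0 and 4 DOWN. For pan-neuronal markers the sums were 6892 and 7019, then 6214 and 5293 CPM, with 4 of 6 below 0, 2 above 0 and 1 DOWN. Abundant genes weighed most in these sums. In control, *Camk2a* (1362 CPM) and *Slc17a7* (996 CPM) were the largest parts of the mean excitatory neuron sum of 2776 CPM. Relative to the control mean, that sum was at -0.26 and -0.52 on the log2 scale in *Ash1L* shRNA samples 1 and 2. The sum of the 5 kainate subunits was at -0.27 and -0.29, and that of the *Neto* genes at -0.19 and -0.62. Astrocyte markers were at -0.31 and -0.67, with 4 of 6 below 0, all 4 of them DOWN, and 2 above 0. *Slc1a2* alone held 3313 of the 4810 CPM of the mean astrocyte sum in control. Oligodendrocyte precursor markers were at 0.27 and 0.26, with 2 of 5 UP (0 in DESeq2 and 1 in the likelihood ratio test). These UP calls were lost without control sample 1 or control sample 2. *Ash1L* shRNA sample 2 stood apart in microglia markers, at -0.98 against 0.24 in sample 1, and in striatal neuron markers, at 0.84 against 0.03. Of the 5 striatal markers tested, 4 were above 0 and 2 were UP (0 without control sample 1 or control sample 2, and 4 without *Ash1L* shRNA sample 1), and 1 was DOWN (0 without control sample 2). Microglia markers (5 of 6 below 0), oligodendrocyte markers (5 of 6 below 0) and endothelial markers (3 of 5 below 0) had 0 DOWN and 0 UP in edgeR's quasi-likelihood and likelihood ratio tests and in DESeq2, and 0 of them passed 0.05 without adjustment in the first. Without control sample 1 or without control sample 2, 2 excitatory neuron and 1 interneuron markers were DOWN. The part of these cell types in the members' values was not tested.

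**Figure D5:**
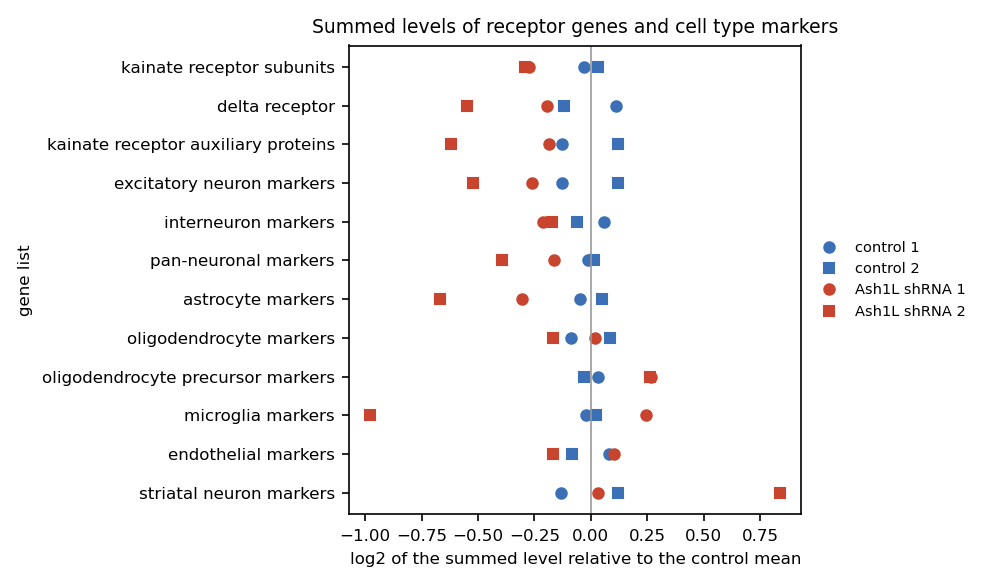
Log2 of the summed level of each gene list relative to its control mean, with blue for control, red for *Ash1L* shRNA, circles for sample 1 and squares for sample 2. Both red points lie left of both blue points for the 3 receptor lists and for the excitatory neuron, interneuron, pan-neuronal and astrocyte markers, and the red squares stand apart for microglia (-0.98) and striatal neuron markers (0.84).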

How the data were processed

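Paired-end reads of ribosome-depleted, stranded total RNA libraries were aligned to mm10 with STAR and counted per gene with featureCounts by the authors, and the deposited values are raw counts for each gene symbol in 4 samples. Another protocol in the labels names Cutadapt and TopHat2. The strand and multiple-mapping settings are not given in the sources used here. Counts were filtered with filterByExpr, normalized with TMM and tested with edgeR 4.0.16 (R 4.3.3) by the robust quasi-likelihood F test, *Ash1L* shRNA against control, without covariates. P-values were adjusted by Benjamini-Hochberg over 16232 genes. DESeq2 1.42.0, other scaling and filters, a length offset (loess span 0.5), a replicate block and leaving out each sample were alternatives. Standard errors are the log2 fold change over the square root of F. GENCODE vM21 matched 93.0% of symbols. Scripts were tested on simulated data.

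The members and gene lists were chosen with earlier results of these data known. In each list, genes called and up to 4 others by mean level are named. Some listed genes are counted but not reported here by name. No gene is named for likeness of pattern, since 4 samples are too few. The sources differ on whether a replicate is a pool or 1 mouse. The edgeR p-values rest on the spread between these samples, with each gene's spread drawn toward that of other genes. Of 6 striatal markers and 9 delta receptor partners, 1 each was not tested. Strand, length and depth limit values between genes.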

Additional observations from a re-analysis of the deposited data

How the results depend on the processing

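Over the 14 alternatives, the log2 fold changes of *Grik1*, *Grik2*, *Grik3*, *Grik5*, *Grid1*, *Neto1* and *Neto2* stayed below 0, and 0 of the 8 members were UP. With all samples kept, *Grik3* ran from -0.39 to -0.34 and *Grik2* from -0.29 to -0.25. With 1 sample left out, *Grik4* ran from -0.15 to 0.31 (-0.09 without control sample 1). The number of members DOWN, 2 in the main test, was 1 with DESeq2, the likelihood ratio test, library-size scaling, a minimum of 10 counts or the length offset, 0 with a 1.5-fold limit, and from 0 to 6 with a sample left out. Members under an adjusted p of 0.05 then numbered 0 to 3 (edgeR). Over all genes, DOWN ran from 306 to 2718 and UP from 423 to 2368 with a sample left out, and a 1.5-fold limit gave 491 and 765. The cause of these changes was not tested, and the fits with a sample left out also held fewer samples.

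Same-numbered samples did not deviate together (r = -0.15 across 16232 genes). With the replicate block 2 members were DOWN (*Grik3* and *Grid1*, which took the place of *Grik2*), as were 1020 genes. The block left 0 kainate receptor binding protein genes and 1 glutamate transporter gene DOWN. It left 0 ADAR family, 0 glutamate transporter and 0 oligodendrocyte precursor genes and 1 delta receptor partner UP. With the length offset added to the block, the log2 fold changes were -0.25 for *Grik2*, not called, and -0.34 for *Grid1*, DOWN. The crossed block, chosen after seeing the data, called 4 members (*Grik2*, *Grik3*, *Neto1* and *Neto2*) and 1736 genes. Of 392 list counts across alternatives, 81 moved by over 1.5 times, 45 of them with a sample left out. With raw counts in place of counts per kilobase, the differences between groups in kainate subunit shares moved by less than 1 SD. Depth limits *Grik1* and *Grik4* most.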

Other observations

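Of 5 glutamate transporter genes, the 2 astrocyte transporter genes were DOWN and 1 neuronal transporter gene was UP. Both astrocyte transporter genes are also among the 4 astrocyte markers called DOWN above. *Slc1a3*, which encodes the astrocyte transporter GLAST, had 661 and 670 CPM in control and 406 and 289 CPM in *Ash1L* shRNA samples, and its log2 fold change was -0.94 (adjusted p = 0.241, edgeR's quasi-likelihood test). *Slc1a2*, which encodes the astrocyte transporter GLT-1, was at -0.47 (adjusted p = 0.272, edgeR's quasi-likelihood test). *Slc1a1*, which encodes the neuronal transporter EAAC1, had 161 and 142 CPM in control and 187 and 184 CPM in *Ash1L* shRNA samples and was UP at 0.29 (adjusted p = 0.291, edgeR's quasi-likelihood test), a call lost in DESeq2, in the likelihood ratio test and without any 1 sample. The number DOWN was 1 with the correction for exonic length, and 1 without control sample 1, control sample 2 or *Ash1L* shRNA sample 2. The vesicular transporter genes *Slc17a7* and *Slc17a6* were at -0.30 and 0.11 and were not called.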
